A study of Mus musculus with 10 samples.

Results

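The 5 populations described here are clones of immortalized mouse embryonic fibroblasts (MEFs, connective tissue cells grown out of mouse embryos) titled as having high heteroplasmy, and they make up 5 of the 10 samples of the series. All carry m.5024C>T, a C-to-T change in mt-Ta, the mitochondrial gene for alanine tRNA, and the strain entry reads C57Bl/6N. They were untreated and grew in high glucose DMEM with 10% FBS and 50 µg/ml uridine. The sample descriptions name them clone 26, clone 44, clone 59, clone 62 and clone 83, called high 1 to high 5 below, and each gave 1 library of polyadenylated RNA. The sources used here give neither the immortalization method nor the derivation of the clones, nor the mutant share of any clone. Genes entered with a mean of at least 5 CPM (counts scaled by the library total) over the 5 clones, which kept 10308 of 26401 genes. The remaining genes comprised 4720 without a count in any of the 5 clones and 11373 with a count but a lower mean. Zfp947 (5.00 CPM) lay just inside that minimum and Acacb (4.998 CPM) just outside it.

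Heteroplasmy means that mutant and normal mitochondrial genomes share a cell. Mitochondrial DNA encodes a small set of respiratory chain subunits, 2 ribosomal RNAs and the tRNAs that translate them, and every other mitochondrial protein comes from the nucleus. Fibroblasts build the extracellular matrix of collagens, glycoproteins and proteoglycans, and they retain from the embryo a positional identity carried by homeobox genes. They also sense viral nucleic acids and interferons and answer with interferon-stimulated genes.

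Library totals ran from 19264064 to 28208576 counts, so 5 CPM stood for 96.3 to 141 counts. Between 17408 and 18269 genes had a count, the 20 most abundant genes held 6.22% to 9.15% of the counts, and ribosomal protein genes held 3.97% to 4.96%. With 1 library per clone, a difference between clones cannot be told apart from a difference between cultures or library preparations, so no test was possible and all values below are descriptions. A count of 0 allowed a level of up to 0.106 to 0.156 CPM (3 counts in a library).

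Most markers of fibroblasts were present in every clone, but Thy1 had no count in high 4 and Thy1 and Pdgfra were near 0 in high 5, at 0.425 and 0.284 CPM. All 10 fibroblast markers were kept, and their summed level ran from 9075 CPM in high 5 to 17960 CPM in high 4. Most of that sum was Vim and Col1a1, at 5301 and 3526 CPM in high 5 and 12001 and 5807 CPM in high 4. The sum therefore does not rank the clones by the other markers, of which Prrx1 and Twist1 were lowest in high 4. Per kilobase of the longest annotated transcript, the highest mean levels among protein-coding genes were those of mt-Co1 (5207 CPM per kb), mt-Cytb (5201) and mt-Nd1 (4637), followed by Lgals1, a galactoside-binding lectin (2891). The intermediate filament gene Vim had a mean of 2505 CPM per kb and Col1a1, a chain of type I collagen, 967 CPM per kb. Twist1 and Prrx1, transcription factors of embryonic mesenchyme, stood between 34.8 and 86.4 CPM and between 56.5 and 282 CPM. Several defining genes of other lineages were at or near 0: Cdh5 and Tie1 (endothelium), Ptprc (leukocytes), Myog and Myf5 (muscle), Adipoq (fat cells) and Sox10 (glia) had no count in any clone, and Epcam, an epithelial surface protein, reached at most 0.415 CPM. Other markers fixed for these lineages were present. Fabp4, a marker of fat cells, stood at 60.3, 21.1, 78.8, 13.2 and 4.47 CPM in high 1 to high 5. Krt18, an epithelial keratin, stood at 2.24 to 300 CPM and the neural marker Tubb3 at 3.62 to 10.7 CPM. Of the cartilage and bone markers, Sox9 reached 6.01 CPM in high 2, and Acan, Sp7 and Bglap had at most 0.374 CPM. Krt19, a keratin of simple epithelia, stood at 108.7 to 377 CPM, Cd68, a lysosomal protein of macrophages, at 12.5 to 91.9 CPM, and Map2, a neuronal microtubule protein, at 30.3 to 175 CPM. Of the markers fixed for these checks, Adgre1, Tyrobp, Myod1, Pou5f1 and Dazl had no entry under these names in the raw counts and could not be read.

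The clones differed from one another far beyond counting error. On the log2(CPM + 1) scale, which understates the change of low genes, the median SD over the 5 clones was 0.35 per gene, against a median SD of 0.043 from counting alone. The median gene was 1.83-fold higher in its highest than in its lowest clone, a range of 0.87 on the log2 scale. At least a 4-fold range was seen for 871 of the 10308 kept genes (8.45%), at least a 2-fold range for 4061 (39.4%) and at least an 8-fold range for 365 (3.54%). The share with a 4-fold range was 19.6% in the lowest of 4 equal classes of genes by mean level and 3.14% in the highest. A mean-based minimum retains a gene that is high in a single clone and drops one that is evenly low, and 9378 of the kept genes were at or above 5 CPM in every clone. Presence or absence was part of the pattern: 34 kept genes had no count in at least 1 clone. Pearson's r of log2(CPM + 1) across the 10308 genes ran from 0.865 between high 1 and high 5 to 0.916 between high 2 and high 3. Genes are not independent replicates, so these coefficients only describe the pairs.

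High 1 stood furthest from the rest. It contributed 26.8% of the summed squared deviations from the gene means, against 16.8% to 21.0% for each other clone, and the first principal component, with 35.6% of the variance, set it at 54.0 while the others lay between -28.4 and -0.78. Among the 871 genes with a 4-fold range, the largest gap in the ordered values left high 1 alone on top for 130 genes. The next commonest patterns had a single low clone: high 5 in 88 genes, high 1 in 75, high 4 in 74 and high 3 in 64. In all, 252 genes had 1 clone above the gap, 126 had 2, 171 had 3 and 322 had 4. Standing at least 4-fold above every other clone was seen for 32 genes in high 1 (0.31% of kept genes), 19 in high 2 (0.184%), 10 in high 3 (0.097%), 8 in high 4 (0.0776%) and 1 in high 5 (0.0097%). Standing at least 4-fold below every other clone was seen for 10 genes in high 1 (0.097%), 6 in high 2 (0.0582%), 18 in high 3 (0.175%), 10 in high 4 (0.097%) and 22 in high 5 (0.213%), so that high 5 had the most such losses and 1 such gain.

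**Figure D1:**
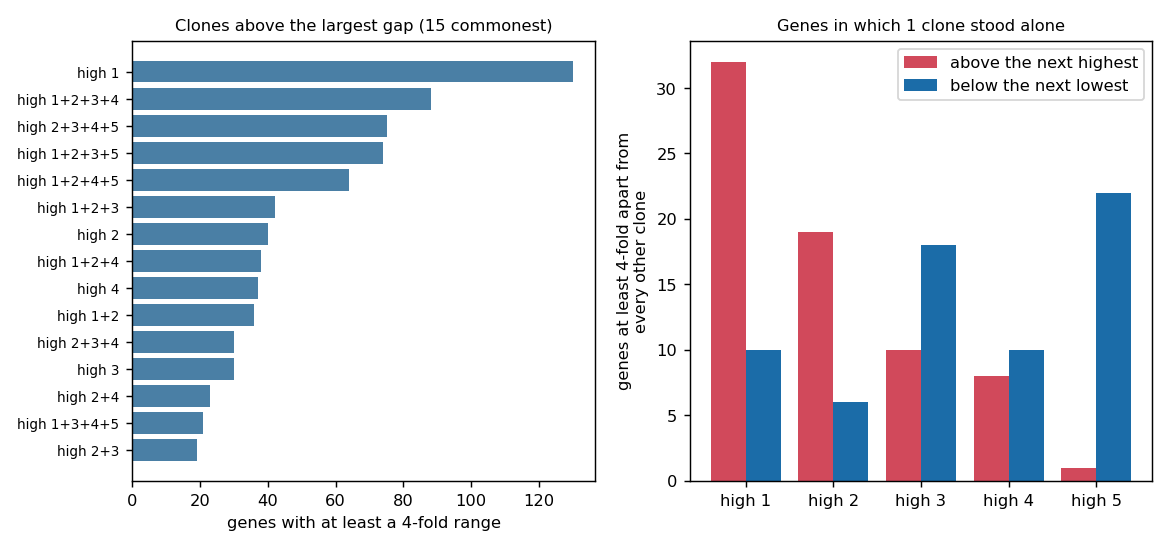
The left panel plots the number of genes with at least a 4-fold range for the 15 commonest sets of clones above the largest gap, and the right panel the number of genes at least 4-fold above or below every other clone. High 1 alone is the longest bar on the left (130 genes), and on the right high 1 has the most gains (32) and high 5 the most losses (22).

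By the share of members with a 4-fold range, interferon response, chemokines and cytokines, matrix glycoproteins, position, cell adhesion, imprinting and collagens varied most. Housekeeping and most mitochondrial lists had few or no members with a 4-fold range. The lists were not matched for level, and such a range was seen for 19.6% of genes in the lowest of 4 classes by mean level and 3.14% in the highest. For lists of abundant genes few or no such members is therefore no separate result. Of 49 gene lists, 39 had at least 8 kept members. In 10 of those 39 at least 50% of the kept members had a 4-fold range, 25 lay above the 8.45% of all kept genes, and 12 had no such member. A list without such a member was not always steady. The median SD of those 12 lists ran from 0.22 to 0.45, against 0.35 for all kept genes. The lists and their order rest on the mean-based minimum: with a minimum of 5 CPM in every clone, 2 lists had at least 50% of members with a 4-fold range. Clones also differed in how often they were highest or lowest, and the counts per list below stand beside these shares. High 1 was highest for 22.9% and lowest for 29.0% of genes outside chromosome 3. High 5 was highest for 30.0% and lowest for 15.1% outside chromosome 7, and high 4 for 14.2% and 24.0% outside the X chromosome. No such share was taken for high 2 and high 3.

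**Figure D2:**
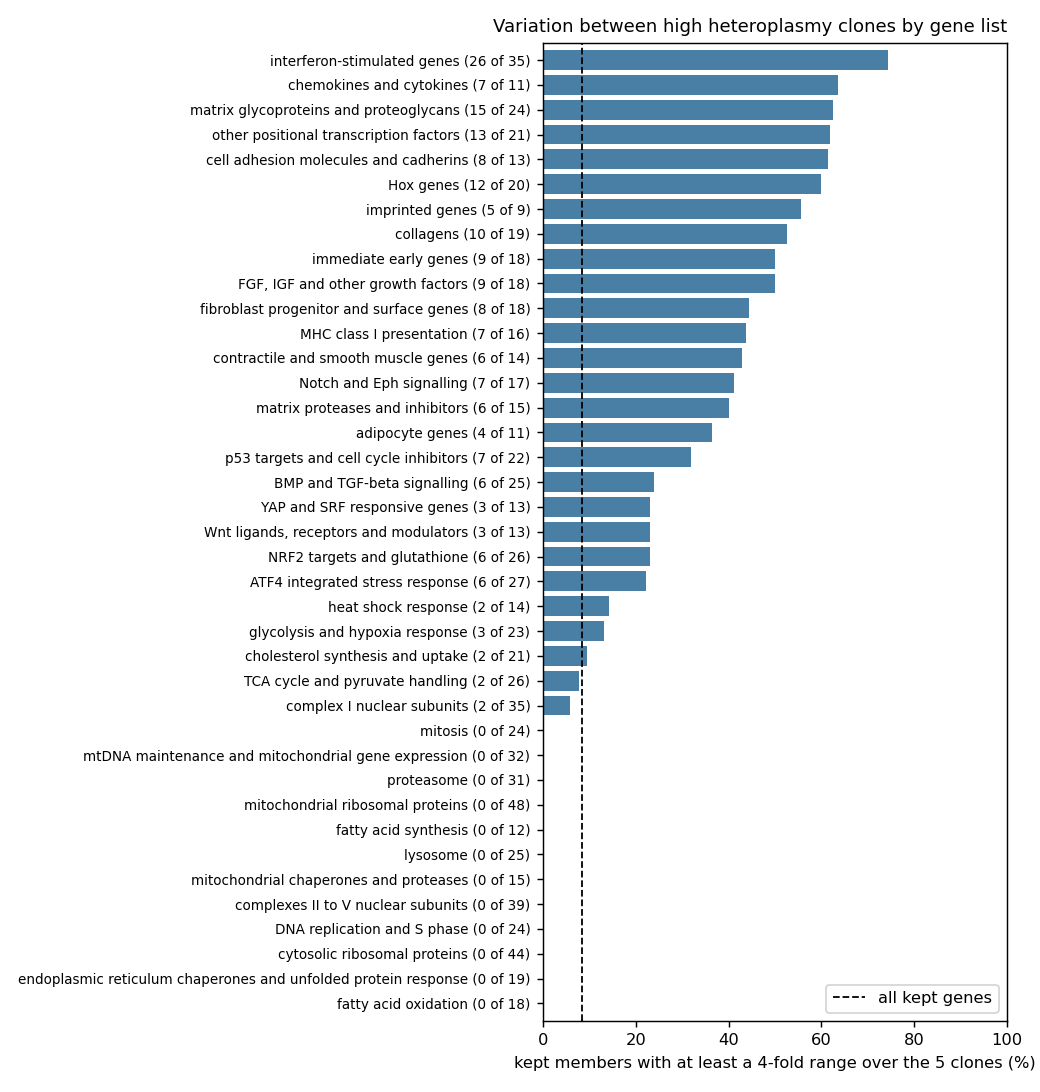
Bars give the percentage of kept members with at least a 4-fold range over the 5 clones for each of the 39 lists with at least 8 kept members, with the members counted in brackets, and the dashed line marks the 8.45% of all kept genes. Interferon-stimulated genes are at the top (26 of 35) and 12 lists, among them cytosolic ribosomal proteins (0 of 44), are at 0.

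Interferon-stimulated genes, which encode antiviral effectors and the factors that induce them, had the highest share of members with a 4-fold range among the lists with 8 or more kept members. Of 38 listed genes 35 were kept, 26 of these (74.3%, against 8.45% of all kept genes) had a 4-fold range, and their median range was 10.3-fold. The 9 kept imprinted genes had a wider median range, 18.8-fold. High 5 was the lowest clone for 31 of the 35, against 15.1% of genes outside chromosome 7. High 4 was the highest for 23, against 14.2% of genes outside the X chromosome. The median deviation from the gene mean was 0.97 in high 4, 0.72 in high 2, 0.50 in high 1, -0.52 in high 3 and -1.92 in high 5 on the log2 scale. Mx1, Ifi44 and Iigp1 were listed but missed the minimum, with highest levels of 6.38, 14.3 and 13.6 CPM. In RNA from a whole culture, fewer cells expressing a gene and less RNA of it per cell cannot be told apart.

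The members with the largest ranges included Isg15, Usp18 and Rtp4. Isg15, a ubiquitin-like modifier, stood at 387, 207, 172, 403 and 21.0 CPM in high 1 to high 5. Usp18, the protease that removes Isg15 and dampens interferon receptor signalling, stood at 32.2, 81.8, 17.6, 120 and 3.30 CPM. Rtp4, a transmembrane transporter chaperone induced by interferon, stood at 74.7, 93.6, 34.7, 199 and 5.85 CPM. In all 3 genes high 5 lay below every other clone and high 4 on top. Oas2, which makes the oligoadenylate messenger that activates RNase L, gave 8.41, 12.03, 3.59, 42.3 and 0.67 CPM. Ifit1, which binds RNA lacking cap methylation, gave 110, 148, 52.8, 169 and 13.6 CPM. Trim30a, a tripartite motif protein, behaved otherwise: with 9.81, 16.1, 0.15, 18.1 and 0.11 CPM it was near absent in high 3 as well as in high 5.

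The list also holds transcription factors and sensors of the response. Irf7, the factor that amplifies type I interferon production, stood at 141, 111, 46.6, 141 and 16.1 CPM. For this gene too high 5 was the lowest clone. Ifih1, a cytosolic sensor of double-stranded RNA, ranged from 18.8 CPM in high 5 to 70.1 CPM in high 4, and Stat2 from 48.3 to 163 CPM. The effector Ifit2 (45.8 to 88.7 CPM) and the factor Irf1 (58.5 to 114 CPM) stayed within a 2-fold range, and their lowest clone was high 3. Without high 5, 15 of 37 kept members (40.5%) had a 4-fold range, and with a minimum of 5 CPM in every clone 14 kept members had. High 5 also had the lowest share of mtDNA-encoded mRNAs, but the order of the other 4 clones differed between both measures, and any part of one in the other was not tested. Of the 4 measured markers of macrophages and blood, Ptprc had no count and Csf1r and Lyz2 at most 0.235 CPM, while Cd68 stood at 91.9, 33.9, 19.5, 32.1 and 12.5 CPM. Their summed level ran from 12.5 CPM in high 5, the lowest clone here too, to 92.1 CPM in high 1, and its part in the interferon result was not tested.

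Promoter sequences show a short element that several of these genes share. The RefSeq windows (GRCm38.p6, 250 bases before to 50 after each start) hold an entry for 25 of the 35 kept members. The letters GAAA in 2 copies with any 2 bases between them are the core of the interferon-stimulated response element. Searched on both strands, they occur in 17 of these 25 genes and in 3.67% of the 8178 kept genes with an entry. The list was drawn up as interferon-stimulated genes, for which this element is known. Its high share therefore follows from the choice of list and does not bear on variation between clones. The motif was chosen after the values were seen, and a match is a description of letters, not of binding. Below are stretches of 80 bases upstream of the start of 4 members that differed widely between the clones, 5′ to 3′ on the gene's strand, with the matches on either strand in capitals.
Isg15 (chr4:156200846-156200925, minus strand): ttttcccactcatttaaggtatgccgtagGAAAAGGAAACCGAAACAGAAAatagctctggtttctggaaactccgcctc
Ifit1 (chr19:34640759-34640838, plus strand): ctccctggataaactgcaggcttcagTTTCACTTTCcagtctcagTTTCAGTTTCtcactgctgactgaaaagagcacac
Ifit3 (chr19:34583355-34583434, plus strand): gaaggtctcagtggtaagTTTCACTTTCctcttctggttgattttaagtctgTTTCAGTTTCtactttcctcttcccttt
Rsad2 (chr12:26456528-26456607, minus strand): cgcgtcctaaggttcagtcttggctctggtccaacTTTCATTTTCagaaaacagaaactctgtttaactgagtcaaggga
Isg15 has 3 overlapping matches, Ifit1 and Ifit3 have 2 each and Rsad2 has 1. Ifit3, a partner of Ifit1, stood at 45.5, 76.9, 21.8, 64.9 and 5.10 CPM, and Rsad2, an antiviral enzyme that makes a chain-terminating nucleotide, at 11.8, 12.3, 1.27, 23.8 and 0.78 CPM. The number of matches therefore did not order the 4 genes by range, which was 4.198 for Isg15, 3.80 for Rsad2, 3.67 for Ifit3 and 3.54 for Ifit1 on the log2 scale. A comparison of promoter features between the most and least variable genes was void, since windows were matched for 69.3% of the most variable 5% of genes.

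Antigen presentation by MHC class I and chemokine genes shared part of the pattern. Of 16 kept MHC class I genes 7 had a 4-fold range, and all 16 had their lowest level in high 3 (8 genes), high 5 (7) or high 4 (1). Outside chromosome 7 high 5 was lowest for 15.1% of genes, and no such share was taken for high 3. B2m, the light chain of all class I molecules, stood at 1170, 651, 563, 1314 and 319 CPM. Psmb8, a subunit of the immunoproteasome, stood at 36.2, 26.8, 2.21, 13.3 and 2.62 CPM, and Nlrc5, the transactivator of class I genes, at 16.5, 22.7, 2.36, 36.9 and 5.46 CPM. Leaving out high 1 or high 5 left 4 of 16 with a 4-fold range in either case. Reads of the closely similar class I heavy chain genes may be split between them. Tapbp, the tapasin of the peptide loading complex, stayed between 191 and 247 CPM.

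Among chemokines and cytokines 7 of 11 kept members had a 4-fold range, and 4 of 11 without high 5. Cxcl12, a stromal chemokine that retains blood progenitors, stood at 15.1, 476, 116, 67.8 and 4.01 CPM. Il1rl1, the receptor for interleukin 33, stood at 17.8, 205, 1.53, 79.4 and 14.5 CPM. Both were highest in high 2. Ccl2, which attracts monocytes, followed another order with 136, 96.7, 43.4, 88.7 and 21.2 CPM, and Csf1, the macrophage growth factor, varied little (140 to 265 CPM). Of the complement genes C3 was present at 272 and 232 CPM in high 1 and high 2 but at 6.25 to 25.2 CPM in the other clones.

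The extracellular matrix held the gene with the largest SD, while the largest range was that of Grb10, an imprinted gene. Col1a2, which encodes the second chain of type I collagen (GRCm38, chr6:4504814-4541544, plus strand), stood at 413, 2.08, 607, 2.11 and 127 CPM in high 1 to high 5, with an SD of 3.75 on the log2 scale. High 2 and high 4 lay far below the other clones for this chain, while its partner Col1a1 stood at 5568, 6527, 7237, 5807 and 3526 CPM in the same libraries, a range of 1.04. The cause of this split between partners of 1 trimer was not tested. Of 19 kept collagens 10 had a 4-fold range. Col3a1, the fibrillar collagen of compliant tissue, stood at 42.5, 230, 152, 14.6 and 10.2 CPM, and Col6a3, a chain of microfibrillar type VI collagen, at 1.92, 111, 24.6, 1.45 and 1.06 CPM. Both were highest in high 2 and lowest in high 5. Col18a1, a basement membrane collagen, was instead the only kept gene at least 4-fold above every other clone in high 5, with 29.0, 38.3, 27.9, 11.4 and 452 CPM. The type IV chains Col4a1 (342 to 745 CPM) and Col4a2 (225 to 468 CPM) moved over similar ranges, with high 4 on top in both.

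Matrix glycoproteins and proteoglycans had a 4-fold range in 15 of 24 kept members, and high 2 was the highest clone for 13 of the 24. The share over all kept genes was not taken for high 2, so this count has no background beside it. Bgn, a small leucine-rich proteoglycan, stood at 1.25, 412, 20.5, 8.21 and 94.7 CPM. Mgp, an inhibitor of calcification, stood at 59.7, 69.4, 1.01, 3.597 and 0.78 CPM, which set high 1 and high 2 apart from the other 3 clones. Lamb1, a laminin chain of basement membranes, was low in a single clone, with 40.9, 102, 2.28, 61.9 and 76.0 CPM. Spp1, the secreted phosphoprotein osteopontin, was low in high 3 and high 5, with 542, 724, 28.0, 372 and 77.8 CPM. Lox, which crosslinks collagen, stood at 110, 1113, 460, 435 and 174 CPM. Fn1, fibronectin, ranged from 1058 CPM in high 5 to 3839 CPM in high 2, while Sparc (1182 to 2047 CPM), Lamc1 (165 to 275 CPM) and Hspg2 (520 to 812 CPM) stayed within a 2-fold range. Of the proteases and inhibitors of the matrix 6 of 15 had a 4-fold range, and 3 of 15 without high 5. Adamts1, an aggrecan-cleaving protease, was lowest there, with 300.5, 349, 334, 118 and 30.9 CPM.

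**Figure D3:**
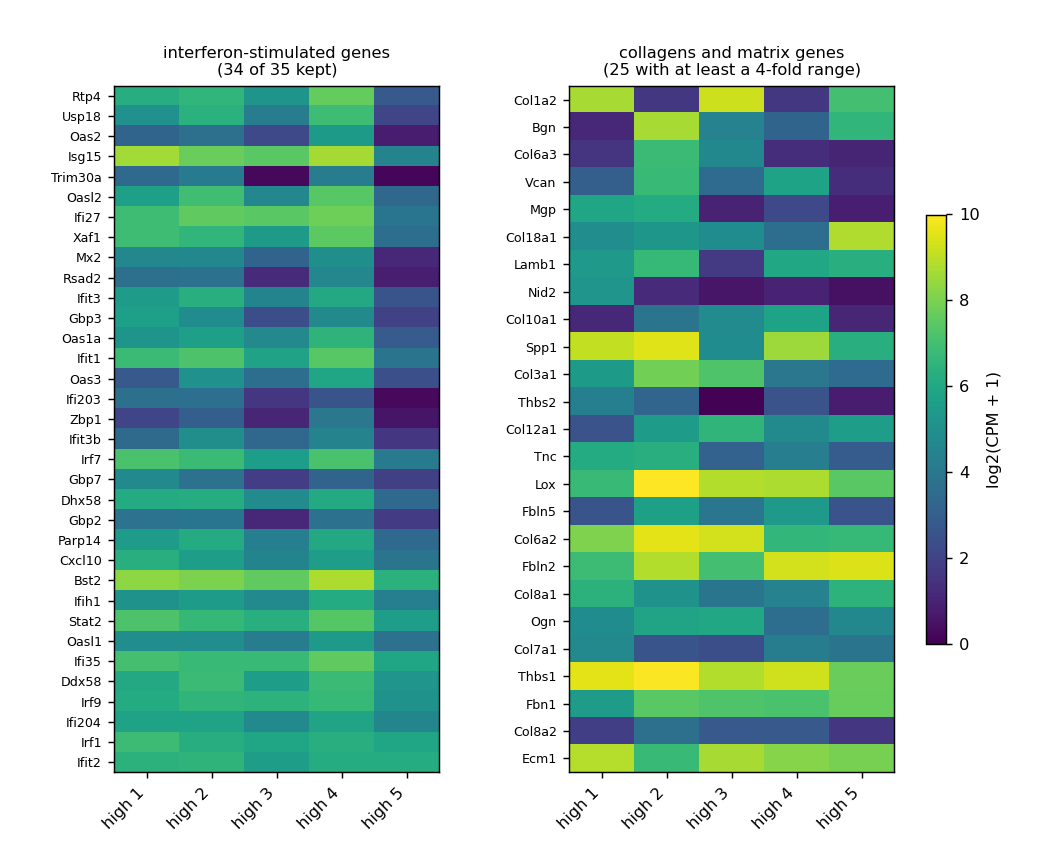
Colours give log2(CPM + 1) in high 1 to high 5 for 34 of the 35 kept interferon-stimulated genes (left) and the 25 collagen and matrix genes with at least a 4-fold range (right). On the left the column of high 5 is darkest for 30 of 34 genes, and on the right no clone is darkest throughout.

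Surface markers and growth factor receptors used to define fibroblast subsets differed between clones that shared Vim and Col1a1. Thy1, a surface glycoprotein used to sort fibroblasts, stood at 58.0, 11.8, 3.22, 0 and 0.425 CPM, so that high 1 was at least 495-fold above the limit for high 4. Pdgfra, a receptor of mesenchymal progenitors, stood at 4.78, 53.5, 1.27, 7.31 and 0.284 CPM. Pdgfrb, its relative of perivascular cells, stood at 6.07, 135, 7.55, 27.8 and 5.14 CPM. High 2 was highest for both receptors. Of the 18 kept genes of this list 8 had a 4-fold range, and 5 of 17 without high 1 or without high 2. The lists for cell adhesion and contraction varied as well. Of 13 kept adhesion genes 8 had a 4-fold range and 5 without high 1, which had a median deviation of -0.93. Itga11, a collagen-binding integrin chain, stood at 2.23, 69.6, 9.57, 5.20 and 0.39 CPM, and Cdh3, a classical cadherin, at 12.5, 117, 69.1, 46.0 and 45.8 CPM. Of 14 contractile genes 6 had a 4-fold range, and 2 of 13 without high 1. Acta2, smooth muscle actin and the marker of myofibroblasts, was low throughout but varied widely, from 0.64 to 17.4 CPM. Krt18, a keratin of simple epithelia, stood at 300.4, 28.6, 2.24, 86.9 and 194 CPM, while its partner Krt8 had at most 2.65 CPM.

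Secreted growth factors and their antagonists also differed between the clones. Sfrp2, a secreted Wnt modulator, stood at 81.9, 824, 209, 422 and 11.3 CPM. Bmp2, a bone morphogenetic protein, stood at 0.415, 21.7, 106, 14.3 and 10.6 CPM, and Id1, an immediate target of that pathway, at 106, 331, 805, 482 and 163 CPM. High 1 was lowest and high 3 highest for both. The pathway list had 6 of 25 kept members with a 4-fold range. High 1 was the lowest clone for 12 of the 25, against 29.0% of genes outside chromosome 3. Fgf10, which signals from mesenchyme to epithelium, was nearly absent from high 1 (0.62 CPM) and high 5 (0.21 CPM) and stood at 7.37, 25.7 and 28.0 CPM in high 2 to high 4. In the growth factor list 9 of 18 kept genes had a 4-fold range, 4 of 17 without high 2 and 6 of 18 without high 3.

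Notch and Eph genes, which signal between touching cells, had a 4-fold range in 7 of 17 kept members and in 4 of 16 without high 3. Ephb3, a receptor of that family, stood at 45.8, 86.6, 5.35, 39.7 and 27.4 CPM, and Hes1, a target of Notch, at 116, 115, 123, 222 and 19.1 CPM. Each was low in a single clone, and that clone was high 3 for Ephb3 and high 5 for Hes1. Ccn2, a matricellular target of the YAP coactivator, was highest in high 4, with 2.39, 7.55, 1.05, 52.8 and 8.83 CPM. Its list had 3 of 13 kept members with a 4-fold range.

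Positional identity genes split the clones in another way. The Hox genes, which record position along the body axis and the limb, had 20 of 38 measured members kept, and 12 of the 20 had a 4-fold range. High 1 was the highest clone for 14 of the 20, against 22.9% of genes outside chromosome 3. Without high 1 only 12 were kept, so some of the 20 passed the minimum through their level in high 1. For those genes a high level in high 1 was set by the minimum and is no separate result. Hoxb13, the last gene of the Hoxb cluster, stood at 35.6, 2.53, 0.45, 0.82 and 3.12 CPM, and Hoxb8 at 35.0, 2.17, 2.39, 5.24 and 1.56 CPM. Hoxb4 gave 41.0, 3.17, 3.10, 6.33 and 3.69 CPM, and Hoxb9 41.7, 5.25, 5.80, 13.6 and 7.02 CPM. Hoxb13, Hoxb8 and Hoxb4 averaged under 5 CPM in the other clones and so are among the genes that passed the minimum through high 1. Hoxb9 was above 5 CPM in every clone and was also highest in high 1. Hoxd13, expressed in distal limb, was not highest there and stood at 165, 129, 274, 190 and 189 CPM. Without high 1, none of the 12 Hox genes then kept had a 4-fold range. With a median in place of the mean in the minimum, 4 kept Hox genes had a 4-fold range. Hoxc genes were at or near 0, with at most 0.469 CPM.

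Other positional transcription factors had a 4-fold range in 13 of 21 kept members. High 1 was the lowest clone for 11 of the 21, against 29.0% of genes outside chromosome 3. Without high 4, 8 of 17 kept members had a 4-fold range. Lhx2, a LIM homeobox factor of the limb bud, stood at 2.75, 5.34, 81.6, 17.4 and 48.7 CPM. Tbx4, the T-box factor of the hind limb, stood at 46.7, 6.06, 67.1, 4.57 and 47.7 CPM. High 2 and high 4 were the low pair for Tbx4, as they were for Col1a2. Pitx1, which acts above Tbx4 in the hind limb, stood at 42.3, 26.4, 75.8, 96.1 and 56.0 CPM, and Tbx15 at 105 to 193 CPM, so that neither had this low pair.

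Imprinted genes, which are read from 1 parental copy, included some of the sharpest on and off patterns. Of 30 measured members 9 were kept and 5 of these had a 4-fold range. Grb10, an adaptor that restrains insulin and growth factor receptors (chr11:11930508-12038683, minus strand), stood at 0, 203, 0.299, 146 and 49.2 CPM, at least 1302-fold higher in high 2 than the limit for high 1. Peg10, a retrotransposon-derived gene, stood at 41.8, 1118, 357, 37.3 and 82.2 CPM. Cdkn1c, a cyclin-dependent kinase inhibitor, stood at 53.8, 5.92, 3.89, 0.391 and 0 CPM. Plagl1, a zinc finger factor, was at 27.2 CPM in high 4 and at 0 or 0.0374 CPM elsewhere, so it passed the minimum of the mean through high 4 alone. No clone was high for all of these, and with a minimum on the median in place of the mean 2 kept imprinted genes had a 4-fold range. Igf2r stayed between 185 and 217 CPM, Gnas between 814 and 2112 CPM, and Igf2, H19, Dlk1 and Ndn missed the minimum.

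Y-linked genes were found in 1 clone. Ddx3y, an RNA helicase gene of the Y chromosome, stood at 38.2 CPM in high 2 and at 0 in the others, and Eif2s3y, a translation factor gene, at 37.3 CPM in high 2 and at most 0.0709 CPM elsewhere. Ddx3y and Eif2s3y passed the minimum of the mean through high 2 alone. Kdm5d (23.8 CPM) and Uty (13.02 CPM) were likewise found in high 2 and missed the minimum of the mean. Xist, the RNA of the inactive X chromosome, had at most 0.136 CPM in any clone.

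**Figure D4:**
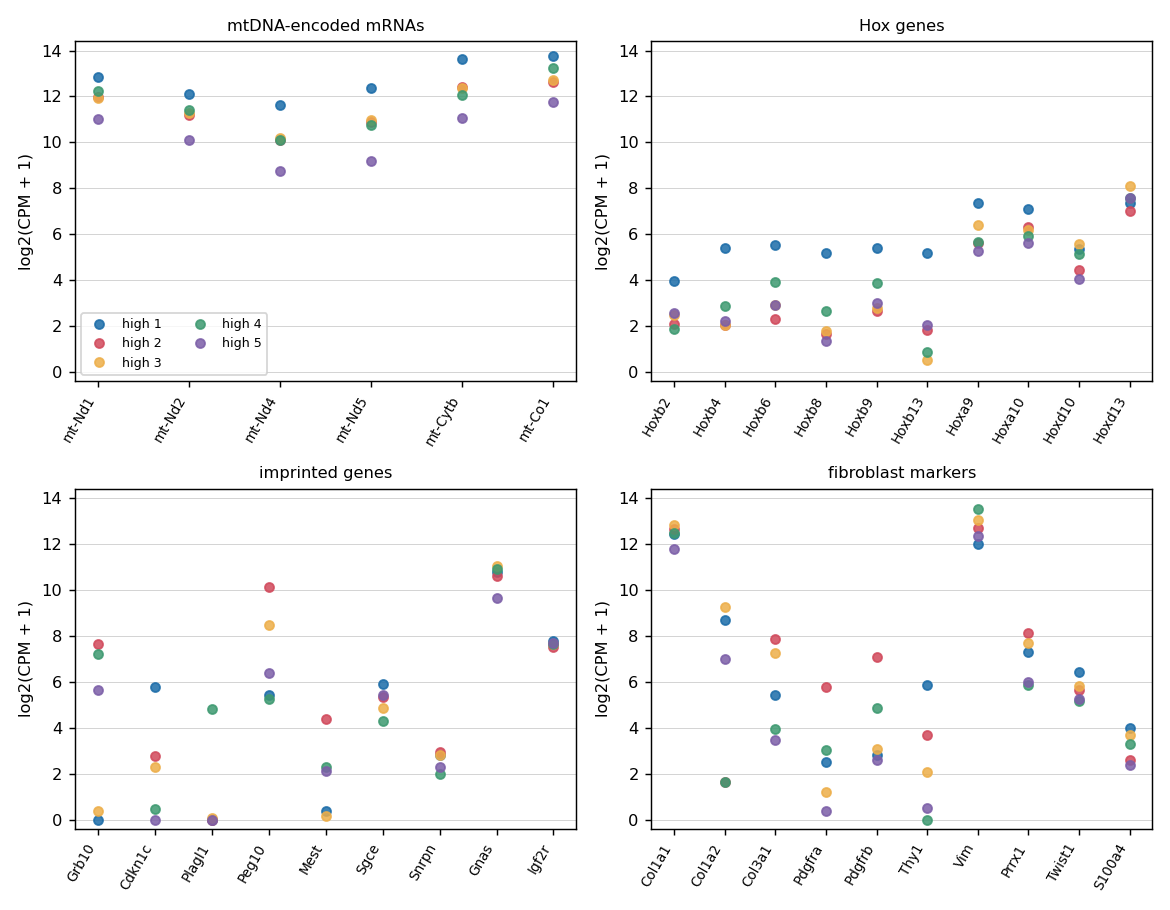
Points give log2(CPM + 1) of each clone for mtDNA-encoded mRNAs, Hox genes, imprinted genes and fibroblast markers, coloured by clone. High 1 is the top point for all 6 mtDNA genes and for the 6 Hoxb genes shown, Grb10 and Plagl1 are split into high and near-zero clones, and Igf2r points coincide.

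The mRNAs encoded by mitochondrial DNA kept 1 order at both ends: high 1 was highest and high 5 lowest for all 7 that were kept. They held 4.69% of the counts in high 1 (95% Wilson interval 4.68% to 4.70%, counting error only), 2.12% in high 2, 2.18% in high 3, 2.42% in high 4 and 0.982% in high 5. Mt-Nd5, a complex I subunit, stood at 5228, 1900, 2016, 1739 and 577 CPM, and mt-Nd4, another, at 3197, 1097, 1159, 1095 and 434 CPM. Mt-Cytb, the cytochrome b of complex III, stood at 12638, 5397, 5355, 4229 and 2128 CPM, and mt-Co1, the catalytic subunit of complex IV, at 13922, 6394, 6812, 9602 and 3493 CPM. High 2, high 3 and high 4 lay close together for mt-Nd4 and mt-Nd5, and 5 of the 7 genes had a 4-fold range. Without high 1 none of the 7 had one and without high 5 only 1 had, so the range rests on both extreme libraries. The large ribosomal RNA mt-Rnr2 followed another order (5367, 6433, 7470, 4755 and 5401 CPM), and poly(A) capture limits what it says. Mt-Co2, mt-Co3, mt-Atp6, mt-Atp8, mt-Nd3 and mt-Nd4l had at most 0.104 CPM, and the sources used here do not say how reads matching more than 1 place were counted. Mt-Nd6 shares its position with mt-Nd5 on the other strand, and the strand setting of the counting is not given.

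Few nuclear genes of the respiratory chain had a 4-fold range. Their median SD was still 0.41 both for complex I and for complexes II to V, against 0.35 for all kept genes. Of 35 complex I subunits 2 had a 4-fold range (5.71%, against 8.45% of all kept genes and 3.14% of the highest of 4 classes by mean level). They were Ndufa13 (387, 196, 297, 223 and 94.0 CPM) and Ndufa3 (150, 65.9, 102, 81.3 and 36.1 CPM). With TMM scaling, without high 1 or without high 5 no complex I subunit had a 4-fold range. High 1 was the highest clone for 22 of the 35 and high 5 the lowest for 18, the same ends as for the mtDNA-encoded mRNAs. Outside chromosome 3 high 1 was highest for 22.9% of genes, and outside chromosome 7 high 5 was lowest for 15.1%. None of 39 subunits of complexes II to V, 48 mitochondrial ribosomal proteins, 32 genes of mtDNA maintenance and expression or 15 mitochondrial chaperones and proteases had a 4-fold range. These counts were not matched for level. The chaperone and protease list was the steadiest of all lists, with a median SD of 0.22 against 0.35 for all kept genes. In it Hspd1, the mitochondrial chaperonin, still spanned 179 to 463 CPM and Hspa9, the mitochondrial Hsp70, 289 to 791 CPM, with high 1 lowest in both. Of 4 equal classes of genes by transcript length, the longest had a median deviation of 0.17 in high 5 and the shortest -0.05, with 0 and 0.04 in high 1, and the part of transcript length in these differences was not tested.

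Stress and metabolic lists differed in how many of their members varied. Of all kept genes 8.45% had a 4-fold range, and 5.70% without high 1, 7.23% without high 2, 6.96% without high 5 and 6.41% with a pseudocount of 3 CPM. The integrated stress response to which mitochondrial dysfunction is known to lead had 6 of 27 kept ATF4 genes with a 4-fold range, 2 of 27 without high 1, and 3 of 27 without high 2 or with a pseudocount of 3 CPM. Gdf15, a stress-induced cytokine, stood at 14.02, 7.10, 40.2, 16.4 and 8.47 CPM, and Aldh18a1, which starts proline synthesis, at 85.1, 318, 177, 158 and 225 CPM. The p53 list had 7 of 22 members with a 4-fold range, 3 of 21 without high 1 and 4 of 22 without high 5. Cdkn1a, the p21 inhibitor of the cell cycle, stood at 90.8, 84.4, 291, 178 and 30.1 CPM, and Perp, a membrane effector of p53, at 86.1, 7.69, 314, 211 and 177 CPM. Trp53 itself stayed between 368 and 577 CPM. Metallothioneins Mt1 (595, 206, 262, 290 and 85.3 CPM) and Mt2 (161, 37.9, 67.7, 51.8 and 19.7 CPM) had the same top and bottom clones as the mtDNA-encoded mRNAs. The NRF2 and glutathione list, which holds both, had 6 of 26 kept members with a 4-fold range, and 2 of 26 without high 1. In metabolism, 3 of 23 kept genes of glycolysis and the hypoxia response had a 4-fold range (none without high 1, 1 without high 4), as had 2 of 26 of the TCA cycle and pyruvate handling (1 without high 1 or without high 4) and 2 of 21 of cholesterol synthesis and uptake (none without high 1 or without high 5). None of 18 genes of fatty acid oxidation and none of 12 of fatty acid synthesis had one. The lactate transporter gene Slc16a3 was low in 1 clone, with 78.4, 53.5, 133, 2.38 and 33.004 CPM, while its relative Slc16a1 was highest in high 1 (289 CPM) and at 47.5 to 87.5 CPM elsewhere.

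Immediate early genes respond to serum and handling within minutes. They were highest in high 1 for 10 of 18 kept members, against 22.9% of genes outside chromosome 3. Nr4a1, an orphan nuclear receptor, stood at 288, 49.2, 33.4, 33.7 and 10.7 CPM, and Fos at 106, 37.2, 26.4, 29.9 and 12.6 CPM. Egr1 gave 295, 188, 47.9, 116 and 108.9 CPM. A 4-fold range was seen for 9 of the 18, for 4 of 18 without high 1, for 6 of 18 without high 3 and for 3 of 17 without high 5. Genes of mitosis ran the other way: high 1 was the lowest clone for 18 of 24, with a median deviation of -0.60, and high 5 the highest for 12. Outside chromosome 3 high 1 was lowest for 29.0% of genes, and outside chromosome 7 high 5 was highest for 30.0%. Hmmr, a spindle protein, stood at 36.6, 84.3, 88.98, 73.7 and 129 CPM, and the kinase gene Aurka at 53.3, 117, 136, 162 and 140 CPM. None of the mitosis or DNA replication genes had a 4-fold range.

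The steadiest genes give the scale against which these ranges stand. Among genes averaging at least 50 CPM, Dcps, the scavenger decapping enzyme, varied least, with 63.7, 64.3, 65.2, 63.8 and 65.7 CPM and an SD of 0.02 on the log2 scale. Pebp1 (210 to 226 CPM) and Gpi1, glucose phosphate isomerase (281 to 310 CPM), were close behind. No member of the cytosolic ribosomal protein (44 kept), proteasome (31), lysosome (25) or endoplasmic reticulum chaperone (19) lists had a 4-fold range. Of all genes in the highest of 4 classes by mean level 3.14% had one.

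Other genes stood apart in a single clone. In high 1, Tcim, a small regulator of Wnt signalling, stood at 110 CPM against at most 3.72 CPM elsewhere, and Nr4a2, a nuclear receptor of the same family as the immediate early gene Nr4a1, at 57.0 CPM against at most 6.10 CPM. High 2 alone expressed Slit3, a guidance ligand (37.8 CPM against at most 1.60 CPM), and Tnfrsf11b, the decoy receptor osteoprotegerin (28.4 CPM against at most 1.60 CPM). High 3 alone expressed Stmn2, a neuronal microtubule regulator (35.5 CPM against at most 0.235 CPM), and the calcium channel gene Cacna1h (63.2 CPM against at most 3.75 CPM). High 4 alone expressed Prg4, the lubricant proteoglycan of joints (69.9 CPM against at most 0.711 CPM). Prg4 lies across from Tpr, whose mean level is 20.6 times its own, and the strand setting of the counting is not given. Tcim, Slit3, Tnfrsf11b, Stmn2, Cacna1h and Prg4 were under 5 CPM in every other clone, so they passed the minimum of the mean through the named clone alone. For them a high level in that clone was set by the minimum and is no separate result. Losses were as sharp: Meis3, a homeobox cofactor, stood at 0.0709 CPM in high 5 against 18.6 to 31.0 CPM elsewhere. Gspt2, a translation release factor gene, had no count in high 4 against 5.20 to 15.95 CPM elsewhere, and Arsj, an arylsulfatase gene, none in high 1 against 10.3 to 28.6 CPM. Among the genes with the largest SD, Sirpa, the receptor for CD47, and Ank, a pyrophosphate transporter, were not specific to 1 clone. Sirpa stood at 27.0, 101.2, 0.598, 59.6 and 0.319 CPM and Ank at 7.11, 76.6, 1.496, 71.1 and 0.106 CPM, so that high 3 and high 5 were the low clones for both. Ccnd2, cyclin D2, shared that pattern with 35.4, 147, 0.935, 55.8 and 2.02 CPM.

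Some of the spread followed chromosomes. A chromosome's deviation in a clone is the median, over its kept genes, of the gene's level minus its 5-clone median. Chromosome 3 had a deviation of 0.54 on the log2 scale in high 1, 1.46-fold, and -0.27 in high 4, and high 1 was the highest clone for 321 of its 506 genes (63.4%) against 22.9% of the genes on other chromosomes. The X chromosome stood at 0.34 in high 4, chromosome 13 at -0.35 in high 1, chromosome 19 at -0.31 in high 4 and chromosome 7 at -0.31 in high 5. High 5 was the lowest clone for 402 of 723 genes of chromosome 7 (55.6%) against 15.1% elsewhere. Copy number was not measured. Taking out each clone's chromosome deviation left 9 lists with at least 50% of members with a 4-fold range, against 10.

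**Figure D5:**
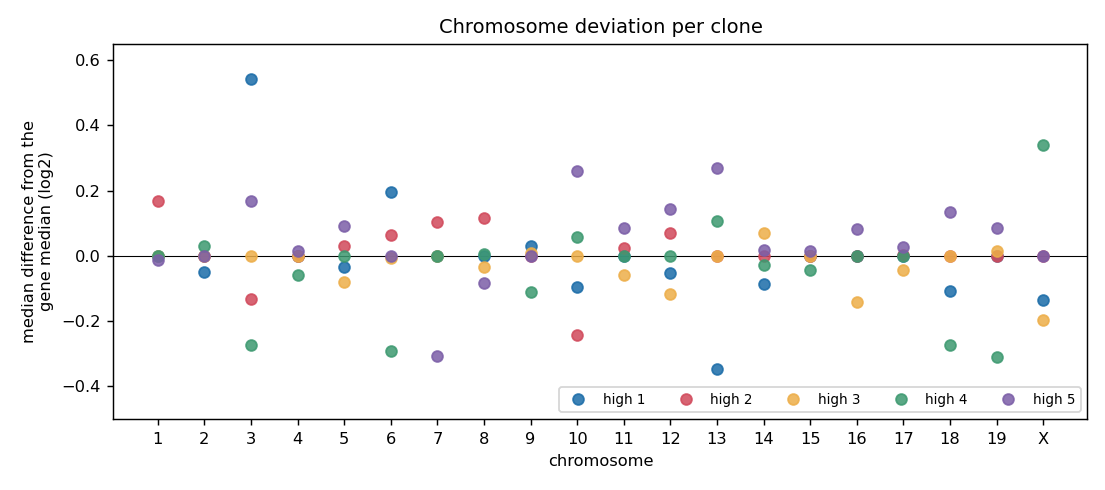
Points give, for each chromosome and clone, the median over kept genes of the gene's level minus its 5-clone median (log2). High 1 on chromosome 3 (0.54) and on chromosome 13 (-0.35) and high 4 on the X chromosome (0.34) lie furthest from 0.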

How the data were processed

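Polyadenylated RNA of 5 clones, 1 library each, was read as 50 bp pairs after poly(A) capture and a directional kit, per the labels' protocols. Per the submitters' processing notes, GRCm38, R 4.2.1, STAR 2.7.8a and DESeq2 1.36.0 are named, without their roles. The sources used here do not give the counting tool, its strand setting or the annotation. The authors deposited raw read counts per Ensembl gene, 1 column per library, which were used as deposited. The labels call the populations biological replicates, each with its own clone number.

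Counts were divided by column totals to give CPM, and genes averaging at least 5 CPM over the 5 clones were kept. Names, positions and transcript lengths came from GENCODE M21 (GRCm38), and 195 identifiers had no symbol. Variation is the SD and the range (highest minus lowest) of log2(CPM + 1), with a pseudocount of 1 CPM, and a 4-fold range is 2 on that scale. The counting SD is the Poisson error of the counts carried to that scale. Overlap with another gene was checked for named genes. The code was tested on simulated data. Tools were Python 3.11.15, pandas 2.3.3, matplotlib 3.10.9, R 4.3.3, edgeR 4.0.16 and DESeq2 1.42.0, the last 2 for scaling factors and for a ranking by dispersion.

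Genes named were the 10 most abundant, the 25 with the largest SD, for each clone the 5 furthest above and the 5 furthest below the other clones, up to 4 members with the largest SD and the most abundant member of each list (all members where fewer than 8 were kept), the 10 steadiest with a mean of at least 50 CPM, and mtDNA-encoded and sex-linked genes. Other list members, chromosome values, the transcript length check and the promoter motif were chosen after their values were seen. The clones and the 49 lists were chosen with earlier results of these data known. Alternatives were TMM and median-of-ratios scaling, pseudocounts of 0.5 and 3 CPM, 3 other filters, other fold thresholds, removal of each clone's chromosome deviation, and each clone left out. The low heteroplasmy samples, the normalized table and the sample sheet were not used here. The values of 1 interferon-stimulated gene, counted in its list, are not reported here.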

Additional observations from a re-analysis of the deposited data

Results flagged for a closer look

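A total of 104 values was checked, namely 20 chromosome deviations, 39 list deviations, the levels of 39 genes and 6 library measures. The genes were the most abundant, those with the largest SD, and mtDNA-encoded or sex-linked genes. In each value the highest or lowest clone was checked for a gap to its nearest neighbour above 0.71 of the range of the 5 clones. Of the 104, 10 met it, and none of these was a library measure. Chance gives about 1 such value in 20 for values that were not selected. Many of the genes were chosen for a large SD, and the chromosome deviations are centred on a median. This rate is therefore no yardstick for the 3 genes and 6 chromosomes among the 10. For 3 genes, 1 clone lay far above the others: Prg4, with 69.86 CPM in high 4, and the Y-linked genes Ddx3y and Eif2s3y, with 38.17 and 37.27 CPM in high 2. These 3 passed the minimum of the mean through that clone alone. The cell adhesion list had a median deviation of -0.9344 (log2) in high 1, far below the other clones. High 4 lay alone below the others on chromosome 19 (-0.3101), chromosome 9 (-0.1098), chromosome 4 (-0.05819) and chromosome 15 (-0.04236). High 5 lay alone below the others on chromosome 7 (-0.3087), and high 2 alone above them on chromosome 1 (0.1692). A deviation is a difference from the median over the 5 clones, so several clones sit at or near 0 and a small value can stand alone, as on chromosomes 4 and 15. The causes were not tested.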

How the results depend on the processing

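No paired analysis was possible because the 5 clones form 1 group and no result comes from a test. The count of 871 genes with a 4-fold range was 1355 with no filter beyond 1 count and 358 with a minimum of 5 CPM in every clone, 4061 for a 2-fold and 365 for an 8-fold threshold, and 583 to 755 with 1 clone left out. The median SD of 0.352 was 0.243 with no filter and 0.315 to 0.364 with 1 clone left out. The 10 lists with at least 50% of members at a 4-fold range became 6 with a pseudocount of 3 CPM, 1 with no filter, 2 with the minimum in every clone and 5 to 8 with 1 clone left out. The 252 genes with 1 clone above the gap became 517 with no filter, 106 with the minimum in every clone and 183 to 285 with 1 clone left out. The lowest r of 0.865 was 0.968 with no filter and 0.862 to 0.899 with 1 clone left out. The deviation of chromosome 3 in high 1 was 0.144 with no filter, and 0.395 to 0.600 with 1 clone left out. Of the 100 genes with the largest SD, 66 were also among the 100 with the largest edgeR dispersion. Counts, SDs and ranges have no direction to reverse. The deviation of chromosome 3 in high 1 stayed positive under every setting in which it was computed. With a pseudocount of 3 CPM, 7 Hox genes and 5 growth factor genes had a 4-fold range. With the minimum in every clone, 4 collagens, 8 matrix glycoproteins, 3 chemokines and 1 other positional factor did. For single lists, 33 counts moved by more than 1.5-fold and 279 did not under the other settings, against 30 and 165 with 1 clone left out, most often without high 1 (14 of 39 lists) and high 5 (9 of 39). Low genes limit the fold values: 5 CPM is about 100 counts, and the pseudocount sets the range of genes near 0.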
